A study of Rattus norvegicus with 21 samples.

Results

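Dammar resin is a plant resin rich in triterpenoids that is used as a food additive, and in these animals it was given in the diet. The comparison is between the livers of 3 male Fischer344 rats fed a diet with 5% dammar resin, equivalent to 2000 mg/kg, for 28 days (DAM 2000) and the livers of 3 male Fischer344 rats fed the basal diet for 28 days (DAM 0). Its 6 samples are all samples that the labels give these doses, of 21 in the series, and each was hybridised to its own Affymetrix rat array. A group of 3 male Fischer344 rats on a 2% diet, equivalent to 800 mg/kg (DAM 800), shared the study and the control animals. A separate arm dosed Sprague-Dawley rats by mouth for 7 days with piperonyl butoxide (PBO), a pesticide synergist. Its 3 animals at 1500 mg/kg and 3 at 0 mg/kg (methyl cellulose vehicle) are used once below. DAM livers were frozen in liquid nitrogen and PBO livers were kept in RNAlater, and animal ages were not stated.

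The liver answers many foreign compounds through nuclear receptors. CAR and PXR switch on oxidising enzymes, conjugating enzymes and exporters, AhR switches on the Cyp1 family, and NRF2 switches on glutathione and quinone defence when it escapes degradation. The same organ makes cholesterol, fatty acids and bile acids, and in male rats the pulses of growth hormone set the level of many liver genes. These roles are background for the gene lists used below.

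Signals were the deposited MAS5 intensities, and all changes are differences of mean log2(signal + 16), DAM 2000 minus DAM 0, with a standard error (SE) from limma. On this scale the change of a gene with a dim group is understated. A probe set was called when its limma p, adjusted by the Benjamini-Hochberg method over 18625 tested probe sets, was under 0.05. In all 2296 probe sets (12.3%) were called, of which 1158 were higher at 2000 mg/kg (6.22%) and 1138 were lower (6.11%). The 3 signals of one group lay wholly above or below the 3 of the other in 5730 probe sets (30.8%). The 14 largest rises and 14 largest falls named below were taken from such genes, so their lack of overlap is no result. A change of at least 1 on the log2 scale was passed by 174 of the higher and 211 of the lower ones. Among 10670 genes taken by their brightest tested probe set, 890 (8.34%) were higher and 691 (6.48%) were lower. These shares, 14.8% in all, are the ones to set beside each list count below. Setting the arrays to a common median added 0.0931 to every change and left 2278 calls, but 71.2% of them were higher, against 50.4% without it, so the balance between small rises and small falls depends on the scaling. Without DAM 2000 replicate 2 there were 1492 calls. In whole liver, fewer cells of a type and less RNA per cell cannot be told apart.

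The 6 arrays were compared by signal levels and by 3′ to 5′ ratios of control probe sets. With 3 arrays a group this cannot show that they are alike. Their trimmed mean signals lay between 500.2 and 500.3, and their median signals between 76.4 and 79.3 in DAM 2000 livers and between 78.8 and 86.2 in DAM 0 livers (exact permutation test, two-sided, p = 0.2, where 0.1 is the smallest value that 3 against 3 allows). The GAPDH 3′ to 5′ ratio, a measure of RNA integrity, was 1.69 to 2.01 in DAM 2000 livers and 1.62 to 1.74 in DAM 0 livers (exact p = 0.4). The beta-actin ratio was high in both groups, 7.26 to 9.71 in DAM 2000 livers and 7.08 to 9.81 in DAM 0 livers (exact p = 0.9). The hexokinase ratio varied widely, from 0.738 to 2.12 in DAM 2000 livers and from 0.169 to 2.96 in DAM 0 livers (exact p = 0.8). The first principal component of the 9 DAM arrays held 33.1% of the variance and set the 3 dose groups apart in dose order. Alb, which encodes albumin, the main plasma protein that hepatocytes make, had signals of 43158, 36760 and 35161 in DAM 2000 livers and 27024, 39249 and 29607 in DAM 0 livers (change 0.28 ± 0.12, adjusted p = 0.167). The adjusted p was 0.0135 without DAM 0 replicate 2.

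**Figure D1:**
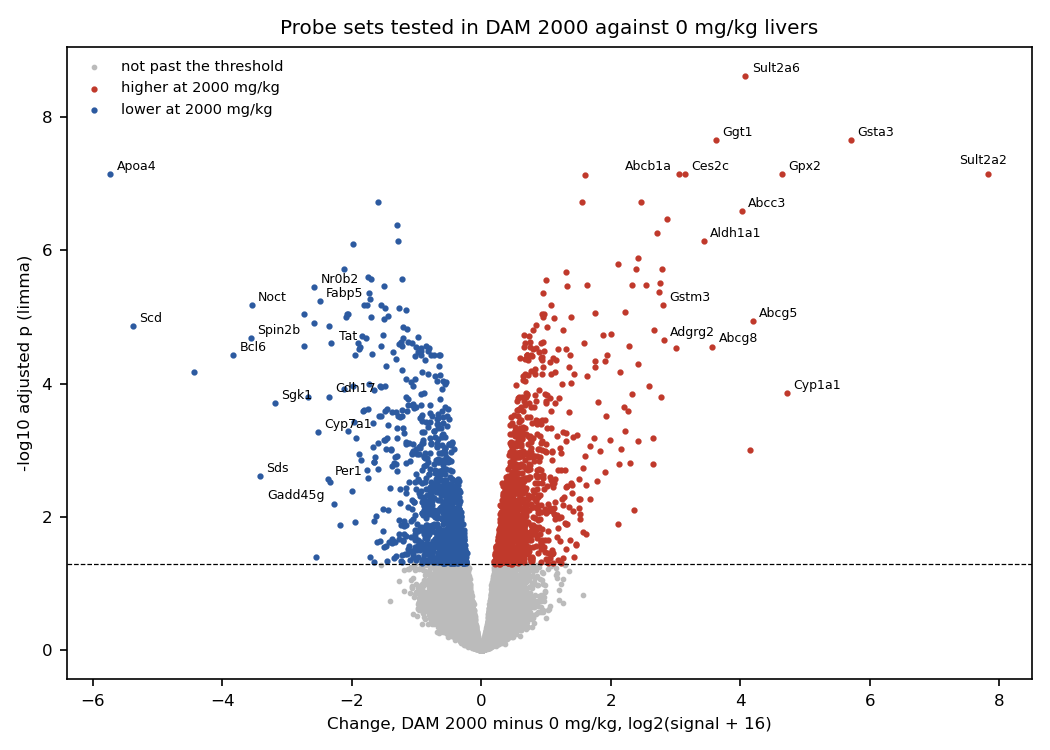
Each point is a probe set tested in DAM 2000 against DAM 0 livers (3 arrays each). The x axis is the change in log2(signal + 16) and the y axis is -log10 of the adjusted p from limma, with the threshold of 0.05 as a dashed line. The 28 named genes are labelled. Sult2a2 is farthest right at 7.83, and Apoa4 farthest left at -5.73.

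Sulfation and glutathione conjugation gave the largest rises. Sult2a2, a hydroxysteroid sulfotransferase that adds sulfate to steroids and bile acids, had signals of 12382, 8437 and 9201 in DAM 2000 livers, against 39.9, 5.18 and 53.3 in DAM 0 livers (change 7.83 ± 0.35, adjusted p = 7.29e-08). Its relative Sult2a6 had 33298, 31541 and 31135 in DAM 2000 livers, against 2208, 1939 and 1541 in DAM 0 livers (change 4.08 ± 0.12, adjusted p = 2.42e-09), the smallest adjusted p of the 28 named genes. Every animal at 2000 mg/kg lay above every control in both genes, as the choice of the largest rises required. Sult2a6, unlike Sult2a2, was well above the median of the array in the controls too. The genes are close copies on chromosome 1 of GRCr8 (85037518 to 85104532 for Sult2a2, 84046685 to 84097808 for Sult2a6), and how far their probe sets read each other's transcripts was not tested. Of the 19 tested genes of glucuronidation and sulfation 8 rose and 3 fell, with a median change of 0.171, against -0.0131 over all 10670 genes. Ugt2b1, a glucuronosyltransferase, rose by 1.89 ± 0.17. Ugdh, which makes the glucuronic acid donor, rose by 0.44 ± 0.06. Papss2, which makes the sulfate donor that the sulfotransferases use, fell by 0.59 ± 0.07 (adjusted p = 9.18e-05).

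Gsta3, an alpha-class glutathione S-transferase, had signals of 4333, 5193 and 3614 in DAM 2000 livers, against 42.9, 66.4 and 103 in DAM 0 livers (change 5.71 ± 0.22, adjusted p = 2.25e-08). Gstm3, of the mu class, had 859, 1001 and 868 in DAM 2000 livers, against 109, 170 and 83.9 in DAM 0 livers (change 2.80 ± 0.22). For these genes, picked among those without overlap, no animal of one group reached the range of the other. Of 19 tested glutathione S-transferase genes 9 rose and 1 fell (median change 0.401), the fall being lost with a common median. Gstt3 rose by 1.00 ± 0.12, Gstm4 by 0.90 ± 0.14, Gstm2 by 0.76 ± 0.07 and Gstm1 by 0.73 ± 0.08. Gstp1, the pi-class enzyme used as a marker of preneoplastic foci in rat liver, had 741, 1426 and 1339 in DAM 2000 livers and 1025, 795 and 849 in DAM 0 livers (change 0.34 ± 0.20, adjusted p = 0.311, and 0.0104 without DAM 2000 replicate 1). Members of this family are near-identical in parts, and the array may not separate them.

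The NRF2 targets rose in 16 of 28 tested genes and fell in none (median change 0.543). Gpx2, a glutathione peroxidase best known from the gut lining, had 1594, 2254 and 2183 in DAM 2000 livers, against 71.2, 42.1 and 85.4 in DAM 0 livers (change 4.64 ± 0.21, adjusted p = 7.29e-08). Nqo1, a quinone reductase, had 1657, 1891 and 1767 in DAM 2000 livers, against 654, 697 and 855 in DAM 0 livers (change 1.26 ± 0.11). The gap between the groups was far smaller for Nqo1 than for Gpx2. Akr7a3, an aldehyde reductase that detoxifies aflatoxin aldehydes, rose by 1.76 ± 0.18, and Blvrb, a biliverdin reductase, by 1.08 ± 0.12. Gsr, glutathione reductase, rose by 0.85, and Gclc, the catalytic subunit of the first enzyme of glutathione synthesis, by 0.66. Hmox1, haem oxygenase, changed by -0.02 and Txnrd1, thioredoxin reductase, by 0.24, and neither was called.

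NRF2 binds an antioxidant response element whose core is TGACNNNGC. Searched on both strands in RefSeq promoter windows of GRCr8 (250 bases before to 50 after the gene start), this core was present in 3342 of 27457 promoters (12.2%). It was present in 7 of the 25 tested NRF2 targets with a window, and in 5 of the 14 that rose. The windows of Gsta3 and Gpx2, the largest rises on the list, are shown on their own strand with the match in capitals; it starts 17 bases before the gene start in Gsta3 and 13 bases before it in Gpx2, where it lies on the opposite strand. A match of these letters is a description and not a measured binding site.
Gsta3 (GRCr8 chr9:31154739-31155038, plus strand): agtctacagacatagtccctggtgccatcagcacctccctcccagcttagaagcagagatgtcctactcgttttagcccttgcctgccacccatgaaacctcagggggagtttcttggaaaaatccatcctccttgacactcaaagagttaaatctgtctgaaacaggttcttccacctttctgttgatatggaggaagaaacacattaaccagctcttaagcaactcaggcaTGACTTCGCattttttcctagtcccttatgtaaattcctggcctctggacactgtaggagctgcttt
Gpx2 (GRCr8 chr6:101229984-101230283, minus strand): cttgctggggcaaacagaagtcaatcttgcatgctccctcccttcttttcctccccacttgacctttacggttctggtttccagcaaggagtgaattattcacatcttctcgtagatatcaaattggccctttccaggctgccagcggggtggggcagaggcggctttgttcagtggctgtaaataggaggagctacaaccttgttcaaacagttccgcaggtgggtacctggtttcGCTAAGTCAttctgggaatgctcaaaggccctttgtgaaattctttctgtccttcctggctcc

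Genes that CAR and PXR are known to induce rose in 14 of 19 tested members, and none fell (median change 0.82). Aldh1a1, which oxidises retinaldehyde, had 24694, 22827 and 20987 in DAM 2000 livers, against 1319, 2416 and 2859 in DAM 0 livers (change 3.44 ± 0.20, adjusted p = 7.23e-07). Ces2c, a carboxylesterase, had 6793, 7077 and 4794 in DAM 2000 livers, against 591, 791 and 671 in DAM 0 livers (change 3.14 ± 0.14). The groups lay apart for both, as the choice of the largest rises required. The P450 members changed less: Cyp3a18 rose by 1.00 ± 0.07 and Cyp3a23-3a1 by 0.63 ± 0.09, with high signals in both groups. Ephx1, microsomal epoxide hydrolase, rose by 0.97 ± 0.09, and Por, the electron donor of the P450 enzymes, by 0.82. Cyp2b1 and Cyp2b2, the best known CAR targets in the rat, were not analysed here because no probe set names them alone.

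Of the AhR targets 2 of 5 tested genes rose. Cyp1a1, which oxidises polycyclic aromatic compounds, had 788, 1511 and 1964 in DAM 2000 livers, against 14.8, 58.6 and 41.1 in DAM 0 livers (change 4.73 ± 0.55, adjusted p = 0.000138). Nqo1, given above, is the other, and it stands on the NRF2 list too. Cyp1a2 had 14517, 12025 and 16574 in DAM 2000 livers and 14690, 11578 and 12587 in DAM 0 livers, so its groups overlapped (change 0.14 ± 0.15, adjusted p = 0.591). Cyp1b1 and Tiparp, other AhR targets, had changes of 0.27 ± 0.23 and 0.34 ± 0.13 and were not called, though Tiparp was with a common median (adjusted p = 0.0446). Among 25 other cytochrome P450 genes 3 rose and 2 fell (20% called, against 14.8% of all genes). No fall was called without DAM 2000 replicate 2 or with a common median, and 1 without DAM 0 replicate 3. The median change of -0.0312 turned to 0.0619 with a common median. Cyp26a1, which degrades retinoic acid, rose by 1.12 ± 0.20. Cyp2c11, the main P450 of the male rat liver, had a change of -0.35 ± 0.12 (adjusted p = 0.0721, and called with 0.0408 without DAM 0 replicate 1 and 0.00175 with quantile normalization).

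Several exporters were among the largest rises. Abcg5 and Abcg8 form a heterodimer that pumps sterols, plant sterols included, from hepatocytes into bile. Abcg5 had signals of 922, 1694 and 2906 in DAM 2000 livers, against 100.2, 76.0 and 54.7 in DAM 0 livers (change 4.20 ± 0.35, adjusted p = 1.14e-05). Abcg8 had 265, 399.8 and 744 in DAM 2000 livers, against 10.5, 36.6 and 21.98 in DAM 0 livers (change 3.57 ± 0.34, adjusted p = 2.78e-05). In both genes replicate 3 was the highest and replicate 1 the lowest of the animals at 2000 mg/kg. All 3 lay above all controls, as the choice of the largest rises required. The genes lie head to head on chromosome 6 of GRCr8, Abcg8 from 15698448 to 15717730 on the minus strand and Abcg5 from 15717936 to 15743376 on the plus strand, so 205 bases lie between their starts. The RefSeq window of the Abcg5 promoter therefore holds the whole stretch that both genes share. It is shown on the plus strand with the bases between the gene starts in capitals.
Abcg5 and Abcg8 (GRCr8 chr6:15717686-15717985, plus strand): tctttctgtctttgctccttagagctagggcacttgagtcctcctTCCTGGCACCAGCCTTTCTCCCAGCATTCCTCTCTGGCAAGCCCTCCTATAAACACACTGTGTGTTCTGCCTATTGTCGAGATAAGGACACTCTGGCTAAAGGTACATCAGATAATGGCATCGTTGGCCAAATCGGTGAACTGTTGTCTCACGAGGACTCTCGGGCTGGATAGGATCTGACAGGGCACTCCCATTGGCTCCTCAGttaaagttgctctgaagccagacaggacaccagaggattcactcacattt

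Abcc3, which exports glucuronides and bile acid conjugates into blood, had 1026, 1154 and 945 in DAM 2000 livers, against 43.3, 42.6 and 61.7 in DAM 0 livers (change 4.03 ± 0.21, adjusted p = 2.59e-07). Abcb1a, P-glycoprotein, had 2005, 2042 and 2099 in DAM 2000 livers, against 227, 288 and 191 in DAM 0 livers (change 3.06 ± 0.14), and its second probe set gave 2.71. The animals at 2000 mg/kg were close to each other in both genes. They lay above the controls, as the choice of the largest rises required. Of 22 tested hepatic transporters 10 rose and 4 fell (median change 0.345), with 2 falls without DAM 2000 replicate 2, with a common median or without the variance trend. Slco1a4, an uptake transporter of organic anions, rose by 0.95 ± 0.08. The organic anion transporters Slc22a8 and Slc22a7 fell by 1.29 ± 0.08 and by 0.61 ± 0.07.

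**Figure D2:**
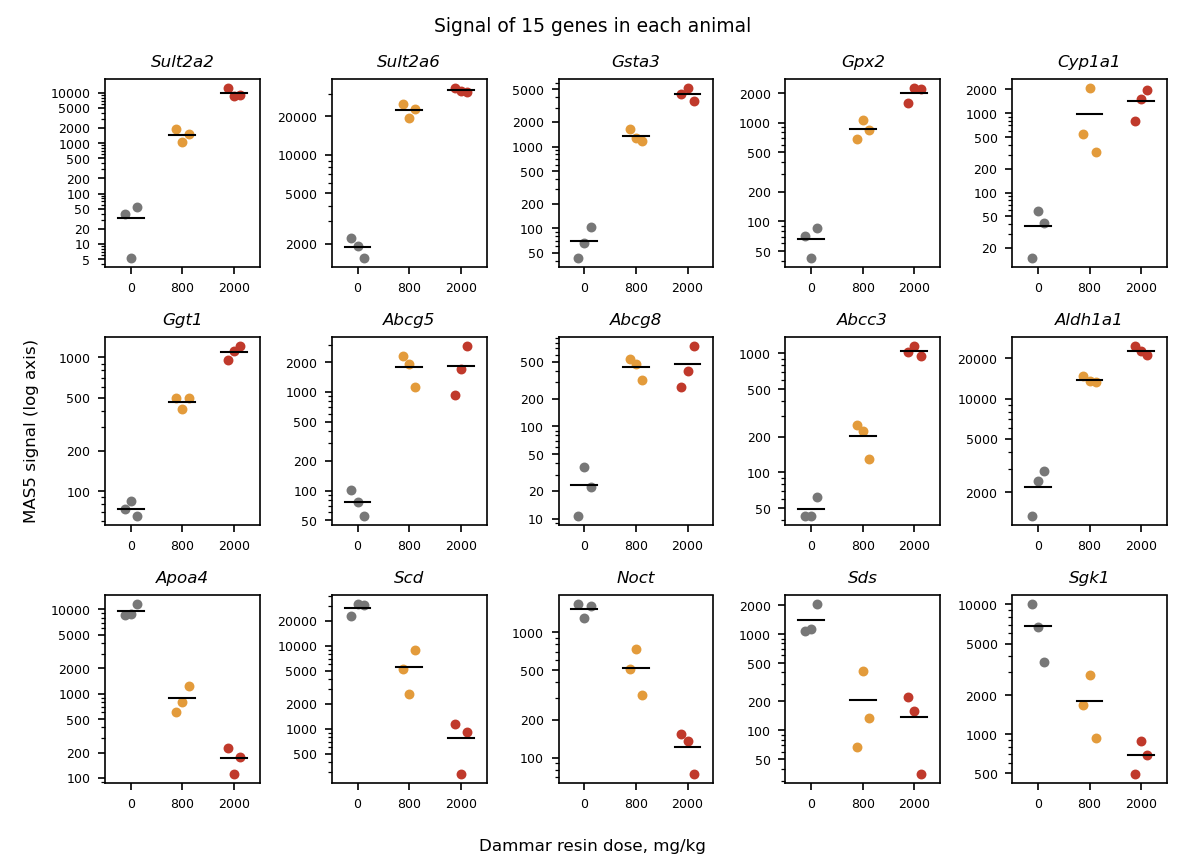
MAS5 signal (log axis) of 15 genes in each of the 9 DAM livers, by dose in mg/kg on the x axis. Points are animals and bars are group means. Abcg5 and Abcg8 have group means close to each other at 2000 and 800 mg/kg, while Sult2a2, Abcc3, Apoa4 and Noct lie farther from the controls at 2000 than at 800 mg/kg.

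Ggt1 encodes gamma-glutamyltransferase, which splits glutathione outside the cell and marks preneoplastic foci in rat liver. It had 962, 1119 and 1218 in DAM 2000 livers, against 73.1, 83.8 and 64.7 in DAM 0 livers (change 3.63 ± 0.14, adjusted p = 2.25e-08). Of 10 tested foci markers 7 rose and 1 fell (median change 1.43), and 5 of the 7 are also targets of NRF2. Cd24, a surface glycoprotein, rose by 1.60 ± 0.25, and Afp, alpha-fetoprotein, fell by 0.49 ± 0.09. Gstp1 was not called, as given above. Adgrg2, an adhesion receptor, had 427, 516 and 461 in DAM 2000 livers, against 24.5, 65.2 and 79.97 in DAM 0 livers (change 2.82 ± 0.26).

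Of 42 tested cell cycle genes only Tk1, thymidine kinase, was called (0.51 ± 0.14, adjusted p = 0.028), and the median change of the list was -0.151. The call of Tk1 was lost without DAM 2000 replicate 1 or 2 or DAM 0 replicate 1 (adjusted p = 0.0747, 0.105 and 0.102), with the replicate block (0.0525) and without the variance trend (0.0643). Falls were called in 3 genes of the list without DAM 0 replicate 1, among them the cyclin genes Ccnb1 (adjusted p = 0.0347) and Ccnb2 (0.0297), in 3 with the replicate block and in 1 without DAM 2000 replicate 2. Mki67, the proliferation marker Ki-67, had 39.8, 152 and 85.2 in DAM 2000 livers and 74.8, 275 and 119 in DAM 0 livers, with overlapping groups (adjusted p = 0.373). Ccnd1, cyclin D1, had a change of -0.21 ± 0.14 (adjusted p = 0.394). Of 16 tested p53 targets 3 rose and 3 fell. Mdm2, the ubiquitin ligase that removes p53, had 1267, 1378 and 1314 in DAM 2000 livers, against 526, 552 and 497 in DAM 0 livers (change 1.31 ± 0.09, adjusted p = 2.12e-06). Phlda3 and Sesn2, other p53 targets, fell by 1.14 ± 0.14 and by 1.49 ± 0.22. Cdkn1a, which encodes the p21 inhibitor of cell division, had a change of 0.29 ± 0.15 and was not called (adjusted p = 0.224).

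Proteasome subunits moved as a block. Of 33 tested subunit genes 28 rose and none fell, with a median change of 0.525 and a highest change of 0.79. Psmc1, an ATPase of the regulatory cap, had 3338, 3197 and 3334 in DAM 2000 livers, against 1973, 2023 and 1925 in DAM 0 livers (change 0.73 ± 0.07, adjusted p = 1.91e-05). Psma7, a subunit of the core ring, had 7165, 7187 and 7294 in DAM 2000 livers, against 4377, 4393 and 4705 in DAM 0 livers (change 0.68 ± 0.06). The changes were small beside those of the conjugating enzymes, but the groups lay apart with little spread. Psmc6, Psmd9, Psmd10, Psma1 and Psma3 were not called by their brightest probe sets. A dimmer probe set of Psmc6 gave 0.41 and was called (limma, adjusted p = 0.00727), while another gave -0.06 and was not. Psma1 was called without DAM 0 replicate 3 (adjusted p = 0.0171) and Psma3 without DAM 2000 replicate 3 (0.0405), and both with a common median (0.0236 and 0.0261). The antioxidant response core was present in 4 of the 24 rising subunit genes with a promoter window (16.7%). It was present in 20.7% of the tested subunits with a window and in 12.2% of all promoters, and a link to the rises was not tested. Of 23 tested endoplasmic reticulum stress genes 1 rose and 3 fell (17.4% called, against 14.8% of all genes). Of 12 heat shock genes 3 rose and 1 fell (33.3% called). The single rise of the stress genes was lost without DAM 0 replicate 3 or the variance trend, and the heat shock rises numbered 1 without any one of DAM 2000 replicates 1, 2 and 3 and DAM 0 replicate 3. Hspb1, a small heat shock protein, rose by 0.92 ± 0.12, and Pdia4, a chaperone of the endoplasmic reticulum, fell by 0.36 ± 0.06 (adjusted p = 0.00272, and 0.055 with a common median).

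Lipid genes split. Scd, stearoyl-CoA desaturase, which makes monounsaturated fatty acids, had 1154, 283 and 913 in DAM 2000 livers, against 23242, 32042 and 31514 in DAM 0 livers (change -5.38 ± 0.46, adjusted p = 1.39e-05, and -4.78 without DAM 2000 replicate 2, the lowest animal). Srebf1, the transcription factor that drives fatty acid synthesis, had 2573, 1870 and 2193 in DAM 2000 livers, against 6878, 7461 and 8053 in DAM 0 livers (change -1.76 ± 0.12, adjusted p = 2.56e-06). Enzymes of the pathway also fell: Fasn, fatty acid synthase, by 1.49 ± 0.19, Acly, which supplies acetyl-CoA, by 1.19 ± 0.17, and Acaca, acetyl-CoA carboxylase, by 1.16 ± 0.14. Pklr, liver pyruvate kinase, fell by 1.58 ± 0.20 and Thrsp, a regulator of lipogenesis, by 1.47 ± 0.15. In all 9 of 23 tested genes of fatty acid synthesis fell and 2 rose (median change -0.269). The rises were in Elovl2, a fatty acid elongase, and in Me1 (0.68 ± 0.09), the malic enzyme gene, which is an NRF2 target too.

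Cholesterol synthesis went the other way. Of 20 tested genes 13 rose and 1 fell (median change 0.654, against 8 rises when limma's variance trend was left out). Sqle, squalene epoxidase, had 984, 1712 and 2940 in DAM 2000 livers, against 488, 302 and 370.5 in DAM 0 livers (change 2.12 ± 0.35, adjusted p = 0.00161). Idi1, isopentenyl diphosphate isomerase, had 6611, 9497 and 16419 in DAM 2000 livers, against 3487, 2275 and 2812 in DAM 0 livers (change 1.84 ± 0.28, adjusted p = 0.00104). Replicate 3 was the highest and replicate 1 the lowest of the animals at 2000 mg/kg in both genes, the order that Abcg5 and Abcg8 also had. The order is not particular to sterol genes: Cyp1a1, Ggt1, Fabp5 and Cyp4a1 had it too, while others such as Gsta3 did not. The second principal component of the DAM arrays also ran in order of replicate number at 2000 mg/kg. What lies behind the order was not tested. Msmo1 and Hsd17b7, later enzymes of the pathway, rose by 1.61 ± 0.29 and by 1.40 ± 0.25. Insig1, which holds the sterol-regulated transcription factors back in the endoplasmic reticulum, fell by 1.07 ± 0.17 (adjusted p = 0.0011). A sterol regulatory element of the form TCACNCCAC was present on either strand in 1.13% of all promoter windows and in none of the 11 rising genes with a window, which says only that these letters are not in these windows.

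Apoa4, an apolipoprotein of gut and liver, had the largest fall. It had 228, 110.2 and 178 in DAM 2000 livers, against 8589, 8844 and 11614 in DAM 0 livers (change -5.73 ± 0.25, adjusted p = 7.29e-08). Apoa1, the main protein of high-density lipoprotein, moved the other way and rose by 0.62 ± 0.09. Of 23 apolipoprotein and lipid transfer genes 3 rose and 4 fell, and the sign of their median change depended on the scaling. Fabp5, a fatty acid binding protein, had 544, 756 and 1013 in DAM 2000 livers, against 4320, 4826 and 3757 in DAM 0 livers (change -2.49 ± 0.19), while Fabp2, its relative of the gut, rose by 1.23 ± 0.19. Of 37 tested PPARalpha targets and fatty acid oxidation genes 4 rose and 4 fell, with 2 rises without the variance trend. This was 21.6% called, against 14.8% of all genes. Cyp4a1, a fatty acid hydroxylase and the classical PPARalpha target of rat liver, had 3097, 3511 and 4046 in DAM 2000 livers, against 6362, 6993 and 6762 in DAM 0 livers (change -0.92 ± 0.10). Angptl4, an inhibitor of lipoprotein lipase, fell by 1.17 ± 0.17, and Plin2, a lipid droplet coat protein, by 0.66 ± 0.08, whereas Decr1, of fatty acid oxidation, rose by 0.59 ± 0.08.

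In bile acid metabolism 2 of 14 tested genes rose and 7 fell (median change -0.28), with 1 rise without DAM 2000 replicate 1 or 3 or DAM 0 replicate 1 or 2. Cyp7a1, the rate-limiting enzyme of bile acid synthesis, had 1009, 498 and 1073 in DAM 2000 livers, against 3868, 3475 and 7911 in DAM 0 livers (change -2.52 ± 0.35, adjusted p = 0.000527). Nr0b2, the repressor SHP that bile acids induce through FXR and that holds Cyp7a1 down, had 737, 700.5 and 476 in DAM 2000 livers, against 3368, 4649 and 3569 in DAM 0 livers (change -2.58 ± 0.19, adjusted p = 3.59e-06). The enzyme and its repressor were both lower in every animal at 2000 mg/kg than in any control, as the choice of the largest falls required. Nr1h4, which encodes FXR, fell by 0.46 ± 0.09, and Fgfr4, the receptor of the gut signal that limits bile acid synthesis, by 0.90 ± 0.13. Akr1d1, a reductase of the pathway, rose by 0.80 ± 0.12, and its second probe set gave 0.21 and was not called.

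Amino acid breakdown genes fell in 11 of 41 tested and rose in 2, against 7 falls without DAM 2000 replicate 2, without DAM 0 replicate 2 or 3, with a common median, or without the variance trend. No rise was called without DAM 2000 replicate 1 or 2 or without the trend, and 1 without DAM 0 replicate 1. Sds, serine dehydratase, had 223, 158 and 34.8 in DAM 2000 livers, against 1079.7, 1121 and 2055 in DAM 0 livers (change -3.42 ± 0.59, adjusted p = 0.00244, and -2.75 without DAM 2000 replicate 3). Tat, tyrosine aminotransferase, had 776, 669 and 516 in DAM 2000 livers, against 3304, 2754 and 4170.0 in DAM 0 livers (change -2.35 ± 0.20, adjusted p = 1.36e-05). Hal, histidine ammonia-lyase, fell by 1.55 ± 0.18 and Gnmt, glycine N-methyltransferase, by 0.79 ± 0.10. Sgk1, a kinase that glucocorticoids induce, had 490.3, 879 and 696 in DAM 2000 livers, against 10084, 6684 and 3599.6 in DAM 0 livers (change -3.19 ± 0.39), and Nr3c1, the glucocorticoid receptor, fell by 0.58 ± 0.10. In the serine and ATF4 list 3 of 20 genes rose and 4 fell, or 2 without DAM 2000 replicate 1 or 2. Psat1, of serine synthesis, had 1041, 2172 and 1117 in DAM 2000 livers, against 262, 362 and 196 in DAM 0 livers (change 2.29 ± 0.37).

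Clock genes fell in 7 of 17 tested, and none rose (median change -0.252). Noct, nocturnin, a phosphatase with a strong daily rhythm, had 154, 136 and 73.4 in DAM 2000 livers, against 1684, 1308 and 1626 in DAM 0 livers (change -3.55 ± 0.28, adjusted p = 6.61e-06). Per1, a repressor in the clock, had 38.6, 41.8 and 38.1 in DAM 2000 livers, against 302, 146 and 436 in DAM 0 livers (change -2.36 ± 0.41, adjusted p = 0.00269). Per2 and Cry1, other repressors of the clock, fell by 1.04 ± 0.21 and by 0.79 ± 0.15, and so did the activator Npas2, by 0.57 ± 0.09. A second, dimmer probe set of Per2 gave 0.20 and was not called (limma, adjusted p = 0.726). Nr1d1 and Dbp, outputs with large daily swings, had changes of 0.41 and 0.05 and were not called. The sources used here do not say at what time of day livers were taken, and the part of sampling time in these values was not tested. Among 19 immediate early genes 2 rose and 4 fell, with 1 rise without DAM 2000 replicate 1 or 3, DAM 0 replicate 2 or 3 or the variance trend. Gadd45g, a stress-response gene, had 379, 224 and 677 in DAM 2000 livers, against 2051, 2152 and 1869 in DAM 0 livers (change -2.34 ± 0.42), while Gadd45b, a CAR target, rose by 1.52 ± 0.33.

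In the growth hormone axis 4 of 26 tested genes rose and 7 fell (median change -0.207). Bcl6, a transcriptional repressor that opposes STAT5 in mouse liver and is more abundant in males, had 254, 199 and 343 in DAM 2000 livers, against 1653, 5542 and 6439.6 in DAM 0 livers (change -3.83 ± 0.38, adjusted p = 3.75e-05, and -4.44 without DAM 0 replicate 1, the lowest control). Cish, a feedback inhibitor that STAT5 induces, had 402, 219 and 537 in DAM 2000 livers, against 82.3, 54.9 and 55.1 in DAM 0 livers (change 2.26 ± 0.29, adjusted p = 0.00026). Prlr, the prolactin receptor, which is higher in female rat liver, had 868, 594 and 627 in DAM 2000 livers, against 90.1, 105 and 72.8 in DAM 0 livers (change 2.75 ± 0.20, adjusted p = 4.19e-06). Obp3, an alpha-2u globulin of male rats, had 6187, 12022 and 11189.7 in DAM 2000 livers, against 34696, 34604 and 34894 in DAM 0 livers (change -1.88 ± 0.18, adjusted p = 3.04e-05). The other male-biased genes did not all follow: Mup5 fell by 0.99 ± 0.15, and Cyp2c11 was not called. Cyp3a2 rose by 0.44 (adjusted p = 0.039), a call that was lost without DAM 2000 replicate 1, 2 or 3 or without DAM 0 replicate 1 or 3, with adjusted p of 0.0557 to 0.13, and under 4 other alternatives (0.0687 to 0.121). The female-specific Cyp2c12 had 558, 706 and 2051 in DAM 2000 livers and 1622, 2709 and 1699 in DAM 0 livers, and was not called (adjusted p = 0.0833). Without DAM 2000 replicate 3 it was called lower (adjusted p = 0.00057).

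Liver transcription factors moved in both directions, 5 up and 7 down of 23, with 3 up without DAM 2000 replicate 2 or the variance trend. Foxa2, a pioneer factor of liver genes, had 3577, 2499 and 4202 in DAM 2000 livers, against 1328, 891 and 725 in DAM 0 livers (change 1.80 ± 0.22, adjusted p = 0.000188). Onecut1, a hepatocyte and bile duct factor, had 1642, 1053 and 584 in DAM 2000 livers, against 446, 313 and 197 in DAM 0 livers (change 1.68 ± 0.33, adjusted p = 0.00538). All animals at 2000 mg/kg lay above all controls for both. Cebpb, a factor of stress and acute phase responses, fell by 0.93 ± 0.09. Interferon-induced genes fell in 7 of 26 and rose in 1. The falls numbered 3, 2 and 4 without DAM 2000 replicates 1, 2 and 3, 2 and 4 without DAM 0 replicates 2 and 3, and 2 without the variance trend, and the rise was lost without DAM 2000 replicate 1 or 2, DAM 0 replicate 2 or the trend. Irf7, their master regulator, had 535, 342 and 600.1 in DAM 2000 livers, against 790.0, 981 and 967 in DAM 0 livers (change -0.90 ± 0.18, adjusted p = 0.00518). Among plasma proteins 1 of 25 rose and 3 fell (16% called, against 14.8% of all genes). There was 1 fall without DAM 2000 replicate 2 or DAM 0 replicate 3, none without the variance trend, and 2 rises without DAM 0 replicate 2. Hamp, hepcidin, fell by 1.09 ± 0.25 (adjusted p = 0.0117, and 0.0578 without the variance trend), with 12848, 15991 and 6150.4 in DAM 2000 livers, against 24421, 21522 and 23416 in DAM 0 livers.

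**Figure D3:**
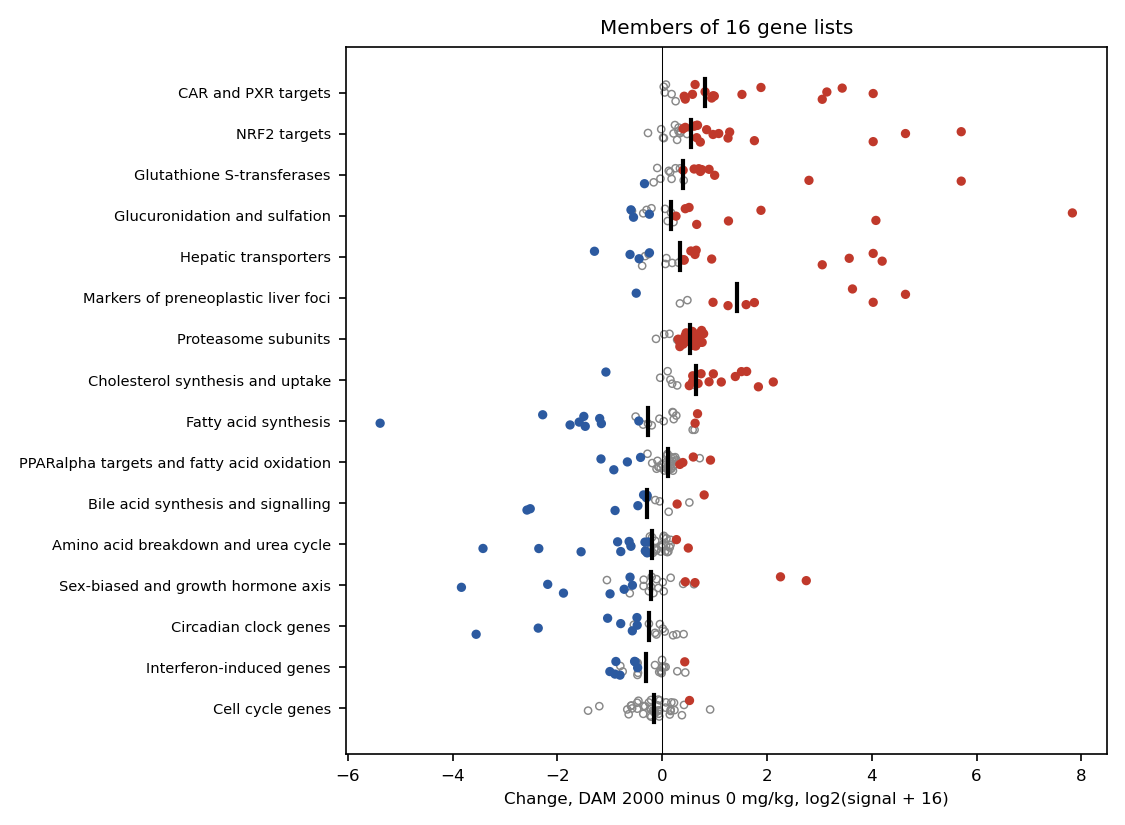
Change in log2(signal + 16), DAM 2000 minus DAM 0, of the tested members of 16 gene lists. Each point is a gene, filled red or blue where it was called higher or lower and open where it was not, and the bar is the list's median. The proteasome genes form a tight group at 0.525, while the cell cycle genes hold a single filled point.

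Markers of other liver cells were read beside these lists. The called share was 18.2% for Kupffer cell and 16.7% for stellate cell and matrix genes, against 14.8% of all genes. Of 4 tested bile duct markers 3 rose: Epcam had 1532, 1499 and 1365 in DAM 2000 livers, against 462, 605 and 615 in DAM 0 livers (change 1.37 ± 0.14, adjusted p = 3.76e-05), with Onecut1 and Krt8 (0.71 ± 0.17, lost without DAM 2000 replicate 1, adjusted p = 0.0524, and without the variance trend, 0.0738). Krt19, the keratin that defines bile duct cells, had 124, 166 and 183 in DAM 2000 livers and 133, 183 and 286 in DAM 0 livers, and was not called (adjusted p = 0.595). Krt7, Sox9, Spp1, Cftr and Cldn4 were not tested. The summed signal of the tested markers was 11566 to 12638 in DAM 2000 livers and 5158 to 8728 in DAM 0 livers. Krt8 made most of these sums, so they say little of the other markers. Of 11 Kupffer cell markers 2 fell and none rose, Cd68 by 0.78 ± 0.11 and the lysozyme gene Lyz2 by 0.38 (adjusted p = 0.0331, and 0.0695 to 0.132 without DAM 2000 replicate 1 or 2 or DAM 0 replicate 1 or 2, and lost under 4 other alternatives). Their sum was 18105 to 22611 in DAM 2000 livers and 24514 to 25799 in DAM 0 livers. Of 18 stellate cell and matrix genes 3 fell, among them the platelet-derived growth factor receptor Pdgfrb by 0.75 (adjusted p = 0.0164, and 0.0578 without DAM 0 replicate 2), with sums of 16264 to 16933 in DAM 2000 livers and 18587 to 21323 in DAM 0 livers. Of 10 periportal hepatocyte markers 3 fell, with Hal and Sds given above, and of 7 pericentral ones 1 rose and 2 fell, with 1 fall left without any one of DAM 2000 replicates 1 and 2 and DAM 0 replicates 1, 2 and 3. Cela1, the single tested marker of pancreatic acinar cells, fell by 0.59. No endothelial, T and NK cell, B cell, MHC class II, neutrophil, erythroid, fat or muscle marker was called by its brightest probe set. The MHC class II genes RT1-DMa and RT1-DMb had changes of -0.67 and -0.58 (adjusted p = 0.062 for each), and were called with the replicate block (0.0371 and 0.0392), with a stricter filter (0.0489 and 0.0494) and with only the arrays of the groups compared (0.0278 and 0.00364). A T and NK cell marker was called lower without DAM 2000 replicate 3, and an erythroid one higher without DAM 2000 replicate 2. The part of cell composition in the lists above was not tested.

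The DAM 800 group shows which changes grew with dose. It shares the control animals with DAM 2000, so the direct contrast of DAM 2000 with DAM 800 was used. It called 207 probe sets (1.11%), 73 higher (0.392%) and 134 lower (0.719%) at 2000 mg/kg, and 125 without DAM 2000 replicate 2, 121 without DAM 800 replicate 1, 123 without DAM 800 replicate 2 and 60 without the variance trend. DAM 800 against DAM 0 called 705 probe sets (3.79%), 403 of them higher (2.16%) and 302 lower (1.62%). Of the 28 genes with the largest changes at 2000 mg/kg, 23 were also called at 800 mg/kg, and 16 differed between the doses. Both counts come from contrasts that share arrays with the one that picked these genes. They therefore cannot be set against the shares over all probe sets.

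Some genes lay near the controls at 800 mg/kg and far from them at 2000 mg/kg. Bcl6 had 1653, 5542 and 6439.6 at 0 mg/kg, 4586, 4823 and 5387 at 800 mg/kg and 254, 199 and 343 at 2000 mg/kg (DAM 2000 minus DAM 800, -4.17, adjusted p = 0.00022). Nr0b2 had 3368, 4649 and 3569 at 0 mg/kg, 3053, 4709 and 3296 at 800 mg/kg and 737, 700.5 and 476 at 2000 mg/kg (-2.50, adjusted p = 0.00019). Cish had 82.3, 54.9 and 55.1 at 0 mg/kg, 38.6, 45.3 and 56.98 at 800 mg/kg and 402, 219 and 537 at 2000 mg/kg (2.60, adjusted p = 0.00073). The 800 mg/kg animals overlapped the controls in these genes, and their own changes of 0.34, -0.08 and -0.34 were not called. Foxa2 and Onecut1 were 1.95 and 2.90 higher at 2000 than at 800 mg/kg, where their own changes over the controls were -0.15 and -1.23 and were not called. The change of Cyp7a1 between 2000 and 800 mg/kg was -1.74 (adjusted p = 0.034), a call that was lost without DAM 2000 replicate 1 or 2 or DAM 800 replicate 2 or 3, with adjusted p of 0.0597 to 0.143, without the filter on low signals (0.0645) and without the variance trend (0.176). Zfp354a, a zinc finger gene, and Mfsd2a, a lysolipid carrier, had changes of -2.89 and -2.08 between the doses, and at 800 mg/kg stood above the control mean (0.95, adjusted p = 0.086, and 0.77, adjusted p = 0.032).

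Other genes moved at both doses. Sult2a2 had 1865, 1039.7 and 1504 at 800 mg/kg, and was 2.77 higher at 2000 mg/kg (adjusted p = 0.0017), Abcc3 was 2.33 higher and Gstm3 1.88 higher. Apoa4 and Scd were lower again at 2000 mg/kg than at 800 mg/kg, with changes of -2.25 and -2.86 (for Scd -2.26 without DAM 2000 replicate 2, and not called without the variance trend, adjusted p = 0.0954). Abcg5 and Abcg8 had no such step: Abcg5 had 2281, 1926 and 1108 and Abcg8 532, 481 and 318 at 800 mg/kg, and DAM 2000 minus DAM 800 was -0.03 and -0.01 (95% interval -0.80 to 0.73 for Abcg5 and -0.75 to 0.73 for Abcg8). Smaller steps in either direction are not excluded. Proteasome subunits rose in 26 of 33 at 800 mg/kg, where 299 of all 10670 tested genes rose. Their median change was 0.525 at 2000 mg/kg and 0.378 at 800 mg/kg. None of the 33 was called between the doses, where 58 of all 10670 tested genes were called higher and 77 lower at 2000 mg/kg. This does not show equal levels.

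**Figure D4:**
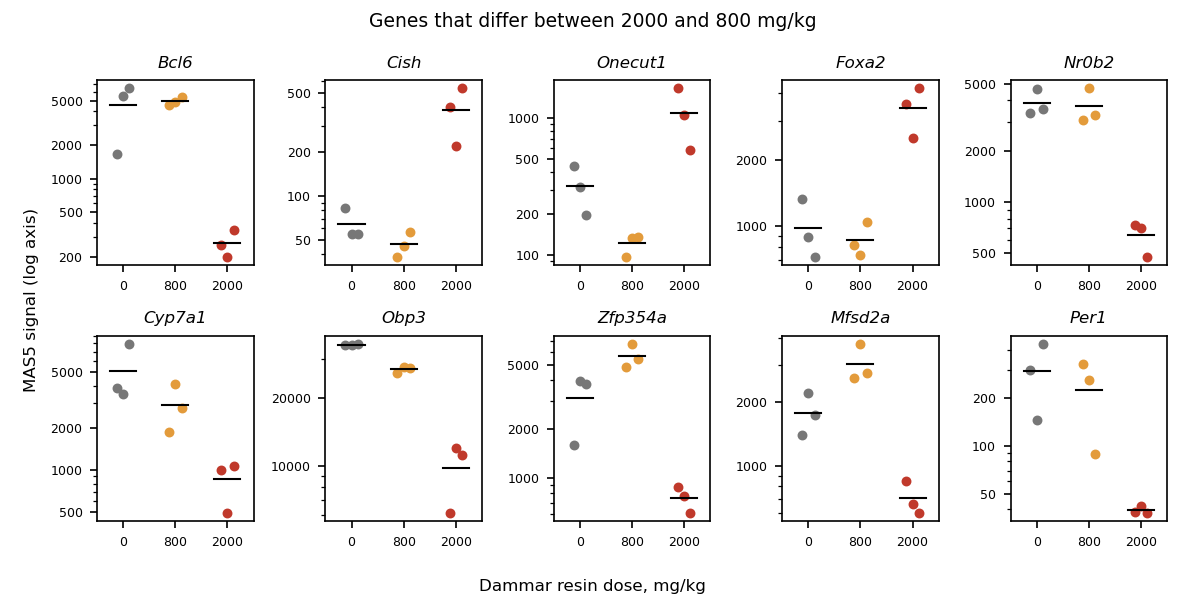
MAS5 signal (log axis) of 10 genes in each of the 9 DAM livers, by dose in mg/kg on the x axis, with points for animals and bars for group means. Bcl6, Nr0b2 and Cish lie near the controls at 800 mg/kg and apart from them at 2000 mg/kg.

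The change at DAM 2000 was set against the change at PBO 1500 over its own controls by an interaction term in a fit of all 21 arrays. The studies differ in compound, strain, dose, route, duration and tissue storage, which cannot be told apart. Their 3′ to 5′ ratios differed too. The beta-actin ratio was 2.38 to 3.16 in the PBO 1500 and PBO 0 arrays and 7.08 to 9.81 in the DAM 2000 and DAM 0 arrays. The GAPDH ratio was 1.07 to 1.17 in the former and 1.62 to 2.01 in the latter. The term was called in 914 probe sets (4.91%), 515 higher (2.77%) and 399 lower (2.14%) for DAM. With only the arrays of the groups compared it was called in 322. It was called in 12 of the 28 genes named above, but these were picked by the DAM change that the term contains. That count therefore cannot be set against the share over all probe sets. It was called in 502 and 588 probe sets without DAM 2000 replicate 1 and 3, in 609, 553 and 553 without DAM 0 replicates 1, 2 and 3, and in 1425 without PBO 1500 replicate 2. Abcg5 rose by 4.20 with DAM and had a change of 0.21 with PBO (difference 3.99, adjusted p = 0.0014), and Abcg8 differed likewise (3.71, adjusted p = 0.013, and 0.0576 with only the arrays of the groups compared). These differences were 4.58 and 4.66 without PBO 1500 replicate 3. Mme, the peptidase neprilysin, had 940, 751 and 908 in DAM 2000 livers, against 87.0, 216 and 261 in DAM 0 livers (change 2.23 ± 0.31), and a change of -1.79 with PBO. Noct and Per1 fell with DAM and had positive changes of 1.57 and 1.06 with PBO (differences -5.12 and -3.43). For Noct the difference was -5.72 without PBO 0 replicate 2, and for Per1 the adjusted p was 0.0529 without DAM 0 replicate 3, while the difference was -4.12 and -2.80 without PBO 1500 replicate 1 and 3. Cyp1a1 rose in both, by 4.73 with DAM and 8.22 with PBO (difference -3.50, adjusted p = 0.037). The adjusted p lay between 0.0562 and 0.107, so that the call was lost, when any one of DAM 2000 replicates 1 and 2, DAM 0 replicates 2 and 3, PBO 1500 replicates 1 and 3 and PBO 0 replicates 1 and 3 was left out, and it was 0.0674 without the variance trend. Apoa4 had changes of -5.73 with DAM and -2.11 with PBO.

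Several of the largest differences came from genes that moved less with DAM than with PBO. Car3, a carbonic anhydrase of the male rat liver, had 41196, 34614 and 35930.3 in DAM 2000 livers, against 36813, 47539 and 40458 in DAM 0 livers (change -0.16 ± 0.09, not called, but with adjusted p = 0.00078 after quantile normalization), and a change of -5.37 with PBO. A second, dimmer probe set of Car3 gave -1.23 for DAM (adjusted p = 2.67e-06), and why the probe sets disagree was not tested. Stac3, Dhrs7l1 and Nrep fell by 2.09, 1.00 and 0.80 with DAM and had changes of -7.06, -5.31 and -4.95 with PBO. The difference for Car3 was 6.12 and 4.09 without PBO 1500 replicate 2 and 3, and that for Dhrs7l1 ran from 3.62 without PBO 1500 replicate 1 to 5.62 without PBO 1500 replicate 3, with 3.68 without PBO 1500 replicate 2. The Dhrs7l1 call was lost without DAM 2000 replicate 3 (adjusted p = 0.0536) or PBO 0 replicate 2 (0.0522), with the replicate block (0.052) and with only the arrays of the groups compared (0.0692). Pfn2, profilin 2, and Slc66a3 had changes of 0.46 and 0.07 with DAM and of 4.17 and 3.67 with PBO. Gsta3, Sult2a6, Aldh1a1 and Gpx2 were picked by hand from the largest rises. The term was not called for them, with differences of 0.37, 0.13, -0.32 and -0.30, which does not show that they changed alike. They do not stand for all drug-metabolism genes, since the term was called for Cyp1a1.

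**Figure D5:**
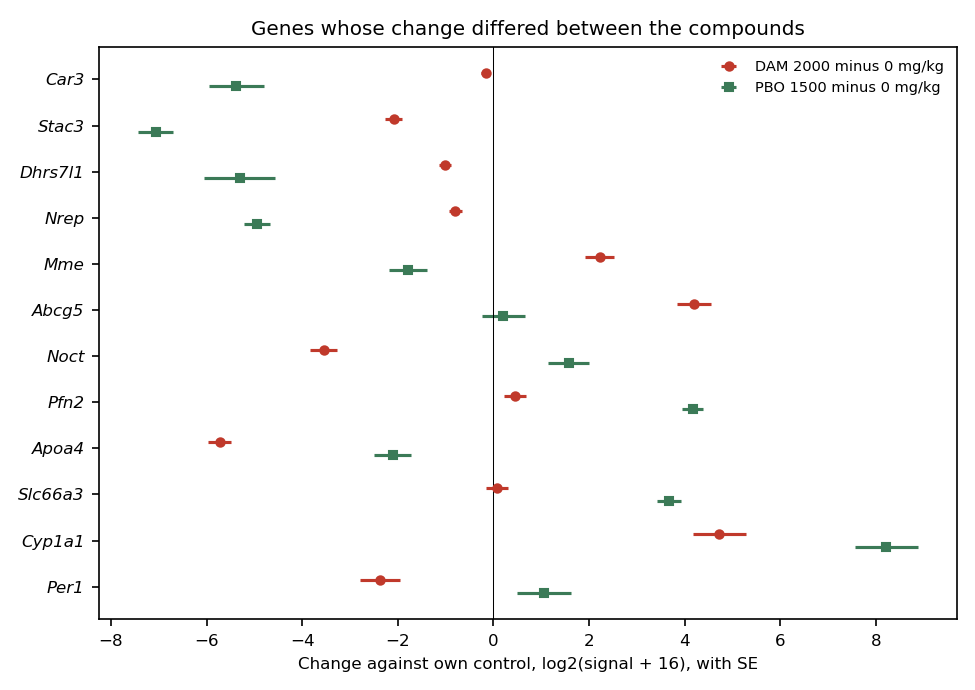
Change in log2(signal + 16) against its own control (x axis, bars show SE) of the 12 genes named for the difference between DAM 2000 (circles) and PBO 1500 (squares). Mme lies right of 0 for DAM and left of 0 for PBO, and Noct and Per1 the other way round.

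Among the largest falls were also Spin2b and Cdh17. Spin2b, of the spindlin family, had 22.7, 4.62 and 8.45 in DAM 2000 livers, against 387, 263 and 266 in DAM 0 livers (change -3.56 ± 0.32). Cdh17, a cadherin of liver and gut, had 831, 2342 and 1933 in DAM 2000 livers, against 8141, 8994 and 7072 in DAM 0 livers (change -2.35 ± 0.28). The groups did not overlap in either gene, as the choice of the largest falls required. The size of a change with a dim group depends on the offset: with 64 in place of 16, changes were 6.72 for Sult2a2, 3.80 for Cyp1a1, 2.53 for Abcg8 and -2.27 for Spin2b, all still called.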

How the data were processed

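The members of each list and the alternatives were chosen with earlier results of these data known. Total RNA of whole livers was labelled with biotin and hybridised to Affymetrix rat arrays. Per the submitters' processing notes the authors used MAS5, and the deposited values are linear intensity values, 1 per probe set, whose trimmed mean (2% cut from each end) lay at 500.2 to 500.3 per array; the number of arrays limits the precision. No MAS5 version is named there.

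Of 31099 probe sets, 57 control probe sets were left out, and probe sets with a mean above the 40th percentile (18625) were tested. Log2(intensity + 16) was fitted with limma 3.58.1 (lmFit, eBayes with a variance trend) in R 4.3.3, on the 9 DAM arrays for DAM contrasts and on all 21 arrays for the interaction with PBO. Tests were two-sided, with Benjamini-Hochberg adjustment over all tested probe sets. The platform annotation gave 1 symbol for 20826 probe sets, several for 436 and none for 9780; symbols were updated through Entrez IDs for 20758. A gene was represented by its brightest tested probe set. Genes named are the 14 largest rises and 14 largest falls among called genes with groups that do not overlap, up to 8 members per list by smallest adjusted p, 6 rises and 6 falls in each other comparison, and a fixed set; genes named outside this rule, such as Hmox1, Txnrd1, Gsr, Gclc, Elovl2, Psmc6, Psmd9, Psmd10, Psma1, Psma3, Nr1d1, Dbp, Por, Cyp3a2, Pdgfrb and the genes of the other observations, were chosen after their values were seen. Alternatives were the offset, the filter, the scaling, the variance trend, a replicate block, fewer arrays and leaving out each array. The script was tested on simulated data. Figures were drawn with matplotlib 3.10.9.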

Additional observations from a re-analysis of the deposited data

Results flagged for a closer look

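The difference between the DAM 2000 effect and the PBO 1500 effect was tested by an interaction term and was called in 914 probe sets. The 12 genes named for it are flagged because the change in DAM 2000 livers differed from the change in PBO 1500 livers. The differences, DAM minus PBO, were 5.22 for Car3, 4.98 for Stac3, 4.30 for Dhrs7l1, 4.16 for Nrep, 4.01 for Mme and 3.99 for Abcg5. They were -5.12 for Noct, -3.72 for Pfn2, -3.62 for Apoa4, -3.60 for Slc66a3, -3.50 for Cyp1a1 and -3.43 for Per1. Mme, Noct and Per1 had changes of opposite sign in the 2 studies. Compound, strain, dose, route, duration, storage and 3′ to 5′ ratios differ together and cannot be told apart. With 3 arrays per group no array was tested for standing apart.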

How the results depend on the processing

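No named gene that was called changed direction under any alternative run. The median change of 7 lists, all near 0, changed sign with the scaling, as for other cytochrome P450 genes and apolipoproteins, and so did uncalled changes near 0 under some alternatives, such as those of Hmox1 (-0.18 to 0.10) and Dbp (-0.14 to 0.22). The 28 genes with the largest changes were called under all 15 alternatives, and so were 162 of the 221 named genes called at 2000 against 0 mg/kg. The count of 2296 for DAM 2000 against 0 mg/kg was 1501 without the variance trend and 1492 to 1882 with 1 array left out. The count of 207 against 800 mg/kg was 60 without the trend and 121 to 198 with 1 array left out. The count of 914 for the difference from PBO was 322 with only the arrays of the groups compared and 502 to 1425 with 1 array left out: 502 without DAM 2000 replicate 1, 588 without DAM 2000 replicate 3, 609, 553 and 553 without DAM 0 replicates 1, 2 and 3, and 1425 without PBO 1500 replicate 2. The cause was not tested. The labels do not say whether replicate numbers pair the animals. Same-numbered DAM 2000 and DAM 0 arrays had deviations that correlated at 0.0406, 0.0671 and 0.104, and each correlated best with its own number, a hint from the data only. With the replicate block the 3 counts were 2043, 172 and 726. Signals near background limit the size, not the direction, of changes in genes such as Sult2a2 and Abcg8.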

Other observations

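Genes outside the lists, chosen after their values were seen, also separated the groups. Cidea, a lipid droplet protein, had 4017, 5160 and 3260 in DAM 2000 livers, against 693, 958 and 669 in DAM 0 livers (change 2.39, adjusted p = 1.89e-06, limma). Lpl, lipoprotein lipase, which adult liver makes little of, had 395, 612 and 987 in DAM 2000 livers, against 139, 151 and 166 in DAM 0 livers (change 1.93, adjusted p = 0.00031). Acsm2, a medium-chain acyl-CoA synthetase, rose by 2.77 and Pir, an NRF2-regulated iron protein, by 1.76. Slc2a5, the fructose transporter, fell by 1.60 and Tkfc, triokinase, by 1.49.

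Hsd17b6, a steroid dehydrogenase of male liver, had 3261, 2309 and 2148 in DAM 2000 livers, against 10563, 11212 and 11292 in DAM 0 livers (change -2.12, adjusted p = 1.89e-06). Pbsn, probasin, an androgen-responsive gene of the prostate, fell by 2.33. Tsc22d3, which glucocorticoids induce, had 2859, 2396 and 2514 in DAM 2000 livers, against 6552, 8043 and 10232 in DAM 0 livers (change -1.65), and stood at 7499, 8574 and 4847 in DAM 800 livers. Crem, a cyclic AMP-responsive factor with a daily rhythm, fell by 1.30, and Slc6a6, the taurine transporter, by 1.91.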
